A study of Saccharomyces cerevisiae with 7 samples.

Results

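The genes described here are 10 genes of Saccharomyces cerevisiae for the synthesis of leucine, isoleucine and valine, the branched-chain amino acids: LEU1, LEU2, LEU3, LEU4, LEU9, ILV2, ILV3, ILV5, ILV6 and BAT1. They were picked by gene symbol, and the probeset of each gene was to be chosen by the highest mean signal over all 7 arrays. Each gene had a single probeset, so that this mean decided nothing, and all 10 were found among the 5449 S. cerevisiae genes with a probeset. Because the list was drawn up when results of the same comparison were known, the adjusted p-values below describe where each gene stands in the fit over the whole array and are no independent evidence about the list.

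RNA came from 7 independent cultures of strain NRRL Y-12632 (cir+), all started from 1 culture grown in control media and harvested after 24 h. Of these, 4 grew in YPD, a rich medium of yeast extract, peptone and glucose, made with simulated asbestos mine drainage, a filtered water extract of tailings from an asbestos mine, and 3 grew in YPD made with deionized water. The media with mine drainage had more magnesium and a higher pH than the control media by the study's measurements. Among other differences, chloride, sulfate, iron and nitrate were higher and Kjeldahl nitrogen was slightly lower, so that the components of the drainage cannot be told apart. Each culture was measured on an Affymetrix Yeast Genome 2.0 Array. Values are log2 signals from the Robust Multichip Average (RMA), which brings the probe intensities of all arrays to the same distribution.

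Leucine and valine are built from pyruvate, and isoleucine from threonine and pyruvate, mostly by the same mitochondrial enzymes. Acetolactate synthase (the catalytic subunit ILV2 with the regulatory subunit ILV6), the reductoisomerase ILV5 and the dehydratase ILV3 serve isoleucine and valine alike. The valine precursor is then drawn into the leucine branch by the isopropylmalate synthases LEU4 and LEU9, followed by the isomerase LEU1 and the dehydrogenase LEU2, and the transaminase BAT1 carries out the last step in the mitochondrion. LEU3 encodes the zinc cluster transcription factor of the pathway, which activates its target genes when the leucine intermediate alpha-isopropylmalate is present and can repress them when it is absent.

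LEU3 fell in simulated asbestos mine drainage, ILV2 and ILV5 rose, and the remaining 7 genes did not pass the test. At an adjusted p under 0.05 from limma, which fits every probeset and moderates its variance by that of the others, 2 of the 10 genes were called higher and 1 lower. Over all 5498 S. cerevisiae probesets 14.5% were called higher and 17.1% lower, 31.6% in all, so that 3 calls among 10 genes were about as many as the array gave elsewhere. The differences, mine drainage minus control, were positive for 8 of the 10 genes, beside 46.1% of all probesets, and negative for LEU3 and BAT1. Their median was 0.10 on the log2 scale, beside a median of -0.03 over all probesets. It was 0.044 without control replicate 3, 0.058 without mine drainage replicate 3 and 0.17 without control replicate 1. With the signal of 3' over 5' control probesets of each array as a covariate it was 0.038, and after a second quantile normalization 0.0022. LEU2, ILV3 and ILV6 also had negative differences after that normalization. The median size of the difference, whatever its sign, was 0.15 for the 10 genes and 0.24 for all probesets. All 10 probesets lay above 1.52, the 95th percentile of the probesets for Schizosaccharomyces pombe genes, on all 7 arrays.

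**Figure D1:**
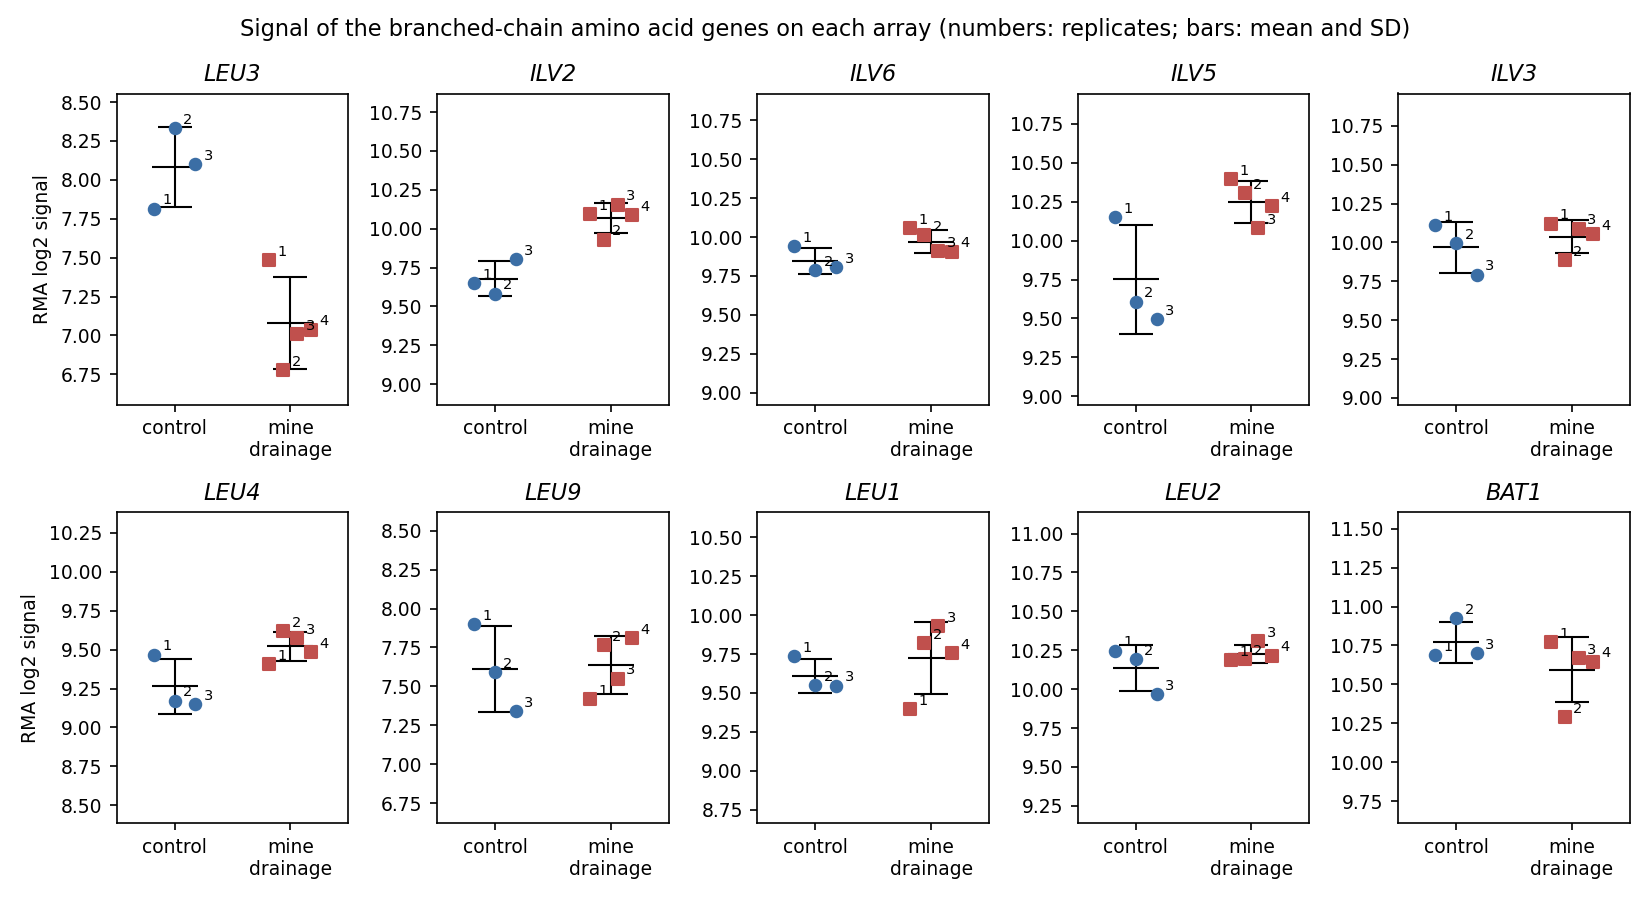
RMA log2 signal of each of the 10 genes on the 3 control arrays (circles) and the 4 mine drainage arrays (squares), with replicate numbers beside the points and bars for the mean and SD; every panel spans the same log2 range, and the panels start at different levels. LEU3 has all mine drainage arrays below all control arrays and ILV2 has all of them above, while the groups overlap for the other 8 genes.

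The regulator gene LEU3 had the largest difference of the 10 genes. Its log2 signal was 7.48, 6.78, 7.01 and 7.04 on mine drainage replicates 1 to 4 and 7.82, 8.33 and 8.10 on control replicates 1 to 3. Every mine drainage array was below every control array, with a gap of 0.33 between the groups. Mine drainage replicate 1 and control replicate 1 were the closest arrays across the groups. The mean was 7.08 ± 0.30 (SD, n = 4) in mine drainage and 8.08 ± 0.26 (SD, n = 3) in control, a fall of 2.01-fold (log2 difference -1.01, standard error 0.17, adjusted p = 0.00447 from limma over all probesets). In size this difference stood at the 98.4th percentile of all S. cerevisiae probesets, of which 31 had a lower difference. The LEU3 probeset also varied more between replicates than most, with a residual SD of 0.28 against a median of 0.16 over all probesets.

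LEU3 is the longest of the 10 genes, at 2661 bp, and longer genes had slightly lower differences over the whole array. The median difference was -0.13 for the 1230 probesets of genes of 2000 bp or more and 0.02 for the 2123 of genes under 1000 bp. Among the 1230 probesets of long genes, 7 were lower than LEU3. ILV2 at 2064 bp and LEU1 at 2340 bp are in the same length class, with differences of 0.39 and 0.11. With a trend with gene length subtracted from each array, the LEU3 difference was -0.88 (adjusted p = 0.00566 from limma). The signal of 3' over 5' probesets of 8 control transcripts, a measure of RNA integrity and priming, was 0.69 ± 0.16 (SD, n = 4) in mine drainage and 0.95 ± 0.17 (SD, n = 3) in control, a difference that did not pass the test (p = 0.114 in a two-sided exact permutation test). With that measure as a covariate, the LEU3 difference was -1.19 (adjusted p = 0.0288 from limma). Over the 7 fits that each left out 1 array, it ran from -1.14 to -0.88, with adjusted p from limma of at most 0.0288.

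**Figure D2:**
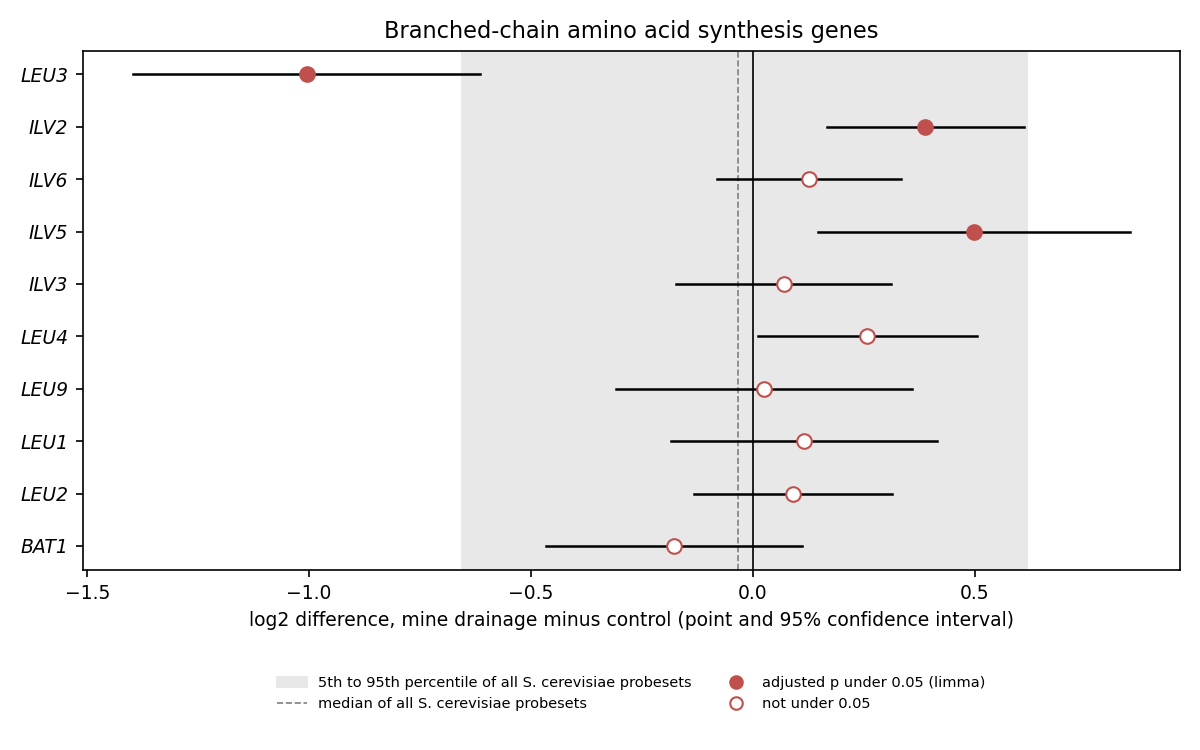
Log2 difference, mine drainage minus control, of the 10 genes (points) with 95% confidence intervals (lines); filled points have an adjusted p under 0.05 from limma, the grey band spans the 5th to 95th percentile of all 5498 S. cerevisiae probesets (-0.66 to 0.62) and the dashed line is their median of -0.03. LEU3 lies outside the band at -1.01, and ILV2 and ILV5 lie inside it at 0.39 and 0.50.

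Of the 4 genes of the shared isoleucine and valine enzymes, ILV2 and ILV5 were called higher, beside 14.5% of all probesets. ILV2 is the catalytic subunit of acetolactate synthase, the first enzyme that both pathways share. Its log2 signals were 10.09, 9.93, 10.15 and 10.09 on mine drainage replicates 1 to 4 and 9.65, 9.58 and 9.80 on control replicates 1 to 3. All mine drainage arrays were above all control arrays, with a gap of 0.13, as was the case for 17.7% of all probesets. The means were 10.07 ± 0.096 (SD, n = 4) and 9.68 ± 0.11 (SD, n = 3), a rise of 1.31-fold (log2 difference 0.39, standard error 0.099, adjusted p = 0.0177 from limma). Its call was lost under 5 of 15 alternatives. Among these were the fits without control replicate 2 (difference 0.34, adjusted p = 0.0913 from limma) and without mine drainage replicate 4 (0.38, adjusted p = 0.0502). With the 3' to 5' measure as a covariate the ILV2 difference was 0.40 (adjusted p = 0.088 from limma). LEU3 was the only other of the 10 genes whose groups did not overlap, in the opposite direction, where 20.5% of all probesets lay.

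ILV6, the regulatory subunit through which valine inhibits the same enzyme, had 10.06, 10.01, 9.91 and 9.91 in mine drainage and 9.94, 9.79 and 9.80 in control. Replicates 1 and 2 of mine drainage were above all control arrays, and replicates 3 and 4 were between control replicate 1 and the other controls. The difference was 0.13 (standard error 0.092, adjusted p = 0.316 from limma), with a 95% confidence interval from -0.08 to 0.33. The ILV2 signal minus the ILV6 signal on the same array ran from -0.08 to 0.25 in mine drainage and from -0.29 to -0.002 in control, so that the ranges overlapped, and whether the subunits differed in their response was not tested.

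ILV5, the ketol-acid reductoisomerase, which is also known as a protein of mitochondrial DNA maintenance, had the largest positive difference of the 10 genes. Its signals were 10.39, 10.31, 10.08 and 10.22 in mine drainage and 10.15, 9.61 and 9.50 in control. Control replicate 1 lay within the range of the mine drainage arrays and the other control arrays lay below it. The means were 10.25 ± 0.13 (SD, n = 4) and 9.75 ± 0.35 (SD, n = 3), a rise of 1.41-fold (log2 difference 0.50, standard error 0.16, adjusted p = 0.0375 from limma). This call was lost when any array but control replicate 1 was left out, with adjusted p from limma between 0.0513 and 0.149, and in the gene-by-gene test that the study used (adjusted p = 0.12). Without control replicate 1 the difference was 0.70 (adjusted p = 0.00425 from limma). With the 3' to 5' measure as a covariate it was 0.25 (adjusted p = 0.366 from limma).

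ILV3, the mitochondrial dihydroxyacid dehydratase with an iron-sulfur cluster, had 10.12, 9.89, 10.09 and 10.05 in mine drainage and 10.11, 10.00 and 9.79 in control. The groups overlapped over most of their range, and the difference was 0.07 (standard error 0.11, adjusted p = 0.652 from limma), with a 95% confidence interval from -0.17 to 0.31. Whether the called and uncalled genes of the shared steps differed from each other was not tested.

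None of the 4 enzyme genes of the leucine branch was called, beside 31.6% of all probesets. Whether this branch differed from the shared steps was not tested. LEU4, the major isopropylmalate synthase and the first enzyme of the branch, came nearest. Its signals were 9.41, 9.62, 9.57 and 9.49 in mine drainage and 9.47, 9.17 and 9.15 in control, where control replicate 1 was above mine drainage replicate 1 and below the rest. The difference was 0.26 (standard error 0.11, adjusted p = 0.1 from limma, unadjusted p = 0.0421), and it was 0.36 without control replicate 1 (adjusted p = 0.0304 from limma).

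LEU9, the paralog of LEU4 for the same reaction, had 7.42, 7.76, 7.55 and 7.81 in mine drainage and 7.90, 7.59 and 7.34 in control. All 4 mine drainage arrays lay inside the range of the controls. The difference was 0.03 (standard error 0.15, adjusted p = 0.913 from limma), with a 95% confidence interval from -0.31 to 0.36. LEU4 minus LEU9 on the same array ran from 1.67 to 2.02 in mine drainage and from 1.57 to 1.81 in control. These ranges overlapped, and a difference between the paralogs in their response was not tested.

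LEU1, the cytosolic isopropylmalate isomerase, which also carries an iron-sulfur cluster, had 9.39, 9.82, 9.93 and 9.76 in mine drainage and 9.74, 9.55 and 9.55 in control. Mine drainage replicate 1 was the lowest of the 7 arrays and the other mine drainage arrays were the highest. The difference was 0.11 (standard error 0.13, adjusted p = 0.538 from limma), and it was 0.23 without mine drainage replicate 1, 0.18 without control replicate 1 and 0.046 without mine drainage replicate 3. LEU2, the isopropylmalate dehydrogenase known as a selectable marker of laboratory strains, varied least between mine drainage arrays, with 10.19, 10.19, 10.31 and 10.22, against 10.25, 10.19 and 9.97 in control. Its difference was 0.09 (standard error 0.1, adjusted p = 0.513 from limma), with a 95% confidence interval from -0.13 to 0.31, and it was 0.0062 without control replicate 3 and 0.15 without control replicate 1.

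BAT1, the mitochondrial branched-chain transaminase, was the only enzyme gene of the list with a negative difference. Its signals were 10.77, 10.29, 10.67 and 10.65 in mine drainage and 10.69, 10.92 and 10.70 in control. Mine drainage replicate 2 was the lowest array, and mine drainage replicate 1 was above control replicates 1 and 3. The difference was -0.18 (standard error 0.13, adjusted p = 0.314 from limma), with a 95% confidence interval from -0.47 to 0.11, and it was -0.077 without mine drainage replicate 2 and -0.10 without control replicate 2. BAT2, the cytosolic paralog, which is not among the 10 genes, had 8.48, 8.98, 8.53 and 8.52 in mine drainage and 8.50, 7.83 and 8.18 in control, with 0.46 between the means (adjusted p = 0.0728 from limma, and 0.62 with adjusted p = 0.0258 without control replicate 1 but 0.28 with adjusted p = 0.283 without control replicate 2). BAT2 minus BAT1 on the same array ran from -2.29 to -1.31 in mine drainage and from -3.09 to -2.19 in control, and a difference between these paralogs in their response was not tested.

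**Figure D3:**
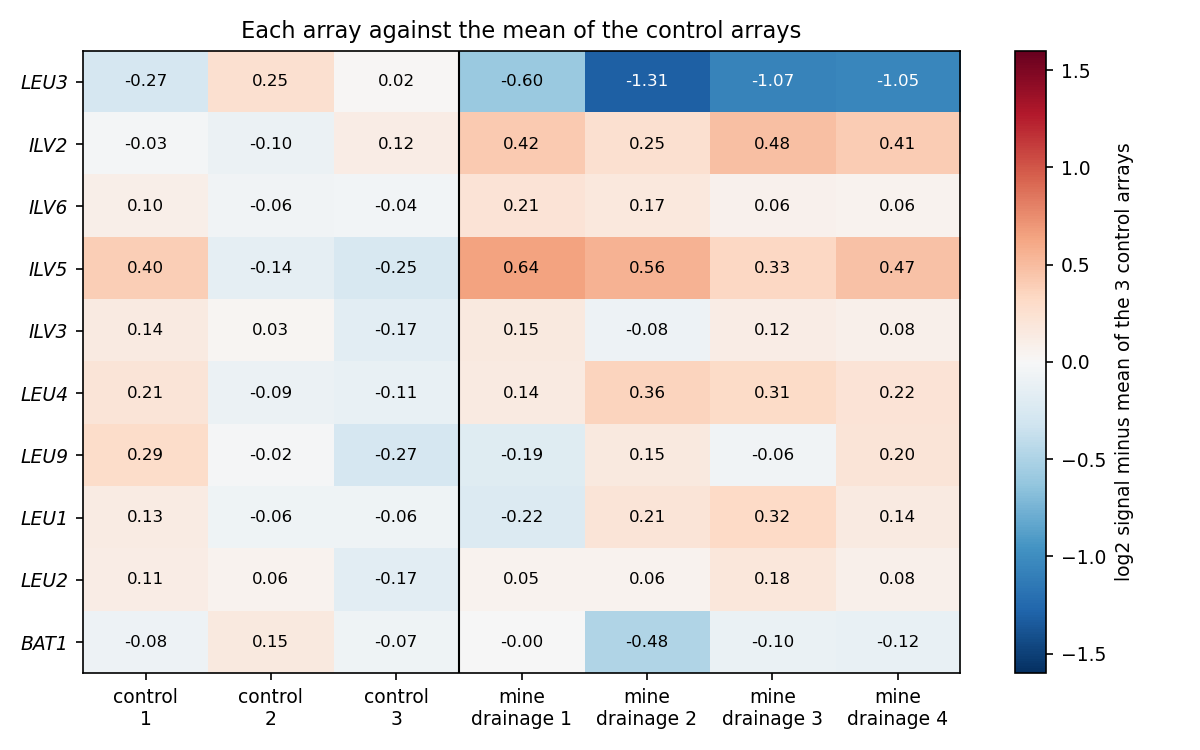
Log2 signal of each gene (row) on each array (column) minus the mean of the 3 control arrays for that gene, printed in the cells and shown as colour (red above, blue below). LEU3 is at -0.60 to -1.31 on the mine drainage arrays, ILV5 at 0.33 to 0.64, and control replicate 1 is at 0.40 for ILV5 and -0.27 for LEU3.

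Across the 10 genes, control replicate 1 was the control array nearest to the mine drainage side. It lay furthest in the direction of the mine drainage mean for 9 of the 10 genes, ILV2 being the exception, and the same array did so for 60.0% of all S. cerevisiae probesets. For the 7 genes other than ILV2 with a positive difference it had the highest control signal, and for LEU3 and BAT1 the lowest. On the mine drainage side no array led in this way. Replicate 1 was the highest of the 4 for 5 genes and the lowest for 4, and replicate 2 was the lowest for 4 genes and the highest for 1. The residual SD of the 10 genes ran from 0.079 for ILV6 to 0.28 for LEU3, with a median of 0.16, equal to that of all probesets at this precision.

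Bright probesets in general had slightly positive differences. Of the 10 genes, 8 had a mean signal of at least 9, all but LEU3 and LEU9, and the median difference of these 8 was 0.12. Over the 992 S. cerevisiae probesets at or above that signal, a limit set after the values were seen, the median difference was 0.10, and 21.8% were called higher and 8.57% lower. When quantile normalization was applied once more, to the S. cerevisiae probesets alone, the median was 0.01 for the bright probesets and 0.002 for the 8 genes. None of the 8 was called, beside 14.6% of the bright probesets called higher and 13.8% lower. ILV2 was then 0.27 (adjusted p = 0.0616 from limma) and ILV5 0.38 (adjusted p = 0.084), while LEU3 was -0.99 (adjusted p = 0.00444). By the definition of the study's methods, an unadjusted p under 0.05 in a gene-by-gene test and a fold change of at least 1.5, LEU3 was the only one of the 10 genes called, beside 12.7% of all probesets.

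Of 3 other genes known to be under Leu3, 1 was called higher and none lower, beside 14.5% and 17.1% of all probesets. GDH1, the NADP-dependent glutamate dehydrogenase of ammonium assimilation, rose by 0.56 on the log2 scale (standard error 0.17, adjusted p = 0.0335 from limma). Its signals were 9.43, 9.99, 9.81 and 9.63 in mine drainage and 9.51, 8.99 and 8.97 in control, where control replicate 1 again lay among the mine drainage arrays. Leaving out any array but replicate 1 of either group ended this call, with adjusted p from limma between 0.0603 and 0.135. OAC1, a mitochondrial carrier that also exports the leucine intermediate, was 0.07 apart between the groups (adjusted p = 0.777), and BAP2, a branched-chain amino acid permease, by -0.28 (standard error 0.13, adjusted p = 0.113).

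Of 7 genes of the isoleucine branch, from aspartate through threonine, 1 rose and 1 fell, beside 14.5% and 17.1% of all probesets. THR4, the threonine synthase, rose by 0.38 (adjusted p = 0.0147 from limma), and CHA1, the catabolic serine and threonine deaminase, fell by 0.50 (adjusted p = 0.0413). The THR4 call was lost without control replicate 2 or 3 (differences 0.35 and 0.35), and the CHA1 call without mine drainage replicate 2 or 3 or control replicate 2 or 3 (-0.41, -0.47, -0.39 and -0.45). ILV1, the threonine deaminase that starts isoleucine synthesis, was higher on all mine drainage arrays, at 9.59, 9.68, 9.78 and 9.69 against 9.49, 9.57 and 9.33 in control. The gap between the groups was 0.012, and 17.7% of all probesets were separated in this direction. The ILV1 difference of 0.22 did not pass the test (standard error 0.099, adjusted p = 0.114 from limma). LEU5, a mitochondrial carrier linked to coenzyme A, was called lower at -0.45 with an adjusted p of 0.0498, and that call was lost under 11 of 15 alternatives, among them the removal of any array but control replicate 1. The LEU5 difference was -0.28 without control replicate 3 and -0.27 with the 3' to 5' measure as a covariate. The 5 tRNA synthetases for leucine, isoleucine and valine and the 3 genes of the pantothenate branch, which starts from the valine precursor, had no call, with differences between -0.06 and 0.25 and between -0.17 and 0.32.

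Genes that sense and take up amino acids moved in both directions. Of 11 permease and sensor genes 2 rose and 3 fell, beside the 14.5% and 17.1% of all probesets. SSY1, the plasma membrane sensor of external amino acids, had 4.03, 3.92, 4.07 and 3.90 in mine drainage and 4.71, 4.92 and 4.75 in control, a fall of 0.81 on the log2 scale (adjusted p = 0.00177 from limma). The SSY1 probeset was dim, with means of 3.98 in mine drainage and 4.79 in control. PTR3, which acts with SSY1, fell from 7.13 ± 0.058 (SD, n = 3) to 6.34 ± 0.14 (SD, n = 4, adjusted p = 0.00206 from limma). The groups did not overlap for either gene, as was the case in that direction for 20.5% of all probesets. BAP3, a permease for branched-chain and other amino acids, fell by 0.58 (adjusted p = 0.0196). GAP1, the general amino acid permease, rose by 0.75 (adjusted p = 0.0205), with mine drainage replicate 1 at 8.01 just below control replicate 1 at 8.03. The BAP3 call was lost without control replicate 1, control replicate 2 or mine drainage replicate 3 (-0.51, -0.54 and -0.56), and the GAP1 call without control replicate 2, control replicate 3 or mine drainage replicate 4 (0.74, 0.56 and 0.73), while SSY1 and PTR3 were called under all 15 alternatives. SSY1 and PTR3 are genes of 2559 and 2037 bp, in the length class with a median difference of -0.13. With the length trend subtracted they were -0.695 and -0.701 (adjusted p = 0.0023 and 0.00245 from limma).

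In the general amino acid control, the pathway that raises synthesis genes through Gcn4 when amino acids are scarce, 2 of 10 genes rose and 1 fell, so that 3 were called, beside 31.6% of all probesets. GCN4, which is regulated mainly in translation, was 0.13 higher on average and not called (adjusted p = 0.289 from limma). GCN2, the kinase that senses uncharged tRNA, had 6.50, 6.35, 6.48 and 6.31 in mine drainage and 7.15, 7.33 and 7.48 in control, a fall of 0.91 on the log2 scale (adjusted p = 0.00177). GCN20, which acts with Gcn1 on the kinase, rose by 0.48 (adjusted p = 0.0249), and GCD7, a subunit of the initiation factor eIF2B, by 0.48 (adjusted p = 0.028). The GCN2 difference kept its side of the threshold under all 15 alternatives, and GCN20 and GCD7 each missed it under 7, among them the removal of control replicate 2, control replicate 3, mine drainage replicate 3 or mine drainage replicate 4. With the 3' to 5' measure as a covariate they were 0.22 (adjusted p = 0.278 from limma) and 0.29 (adjusted p = 0.268). At 4980 bp GCN2 is also a long gene, as is GCN20 at 2259 bp, which rose. With the length trend subtracted, GCN2 was -0.76 and GCN20 0.59 (adjusted p = 0.00229 and 0.0133 from limma).

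**Figure D4:**
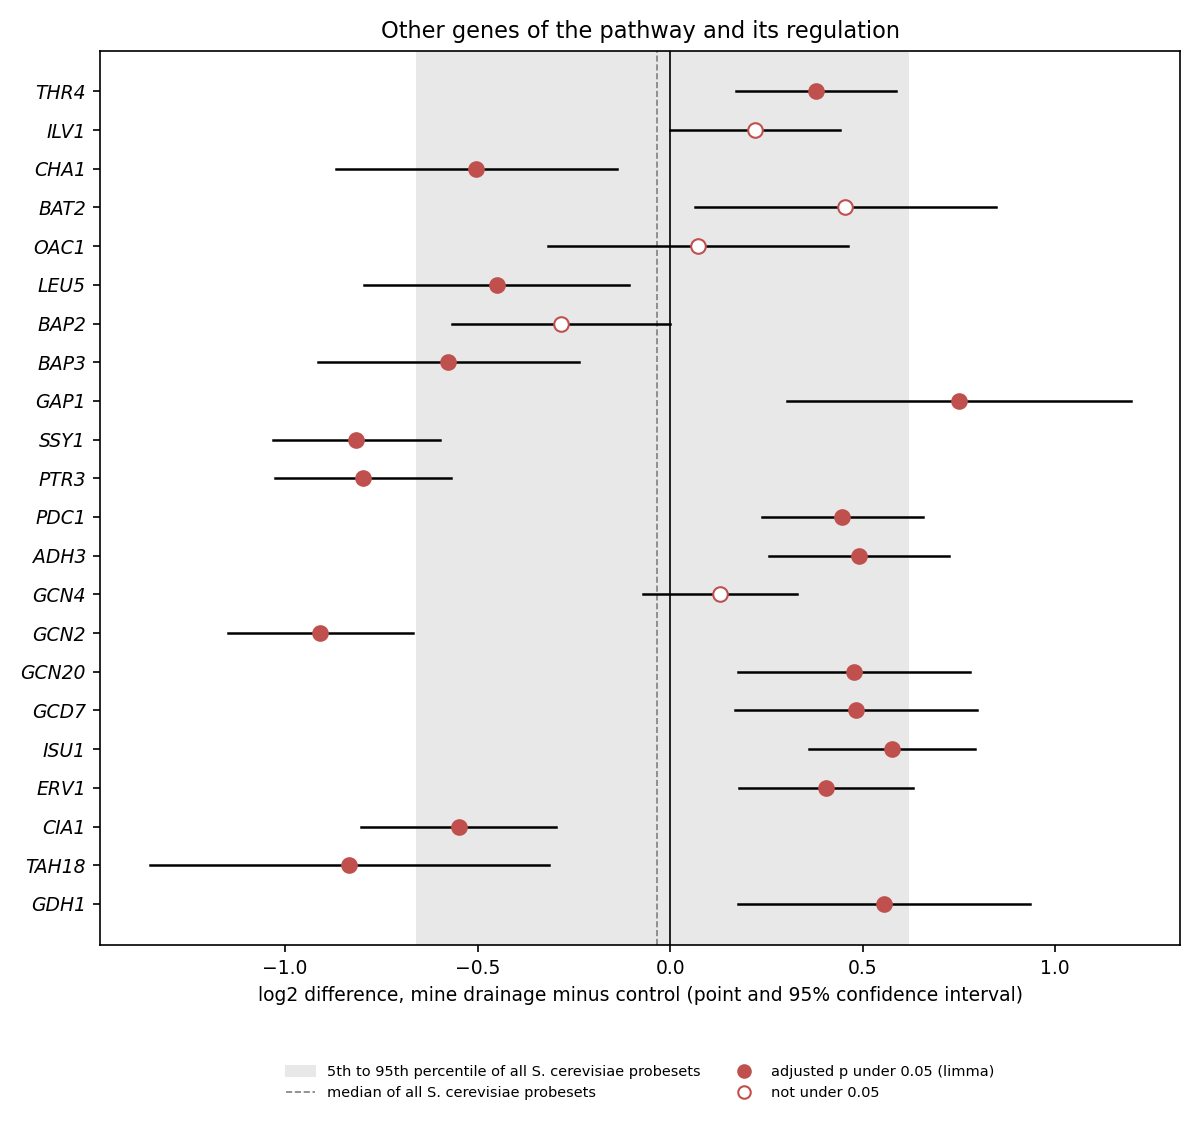
Log2 difference, mine drainage minus control, of 22 genes around the pathway (points) with 95% confidence intervals (lines); filled points have an adjusted p under 0.05 from limma, and the grey band and dashed line are the 5th to 95th percentile and the median of all 5498 S. cerevisiae probesets. GCN2, SSY1, PTR3 and TAH18 lie below the band at -0.91, -0.81, -0.80 and -0.83, and GAP1 lies above it at 0.75.

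The Ehrlich pathway, which turns branched-chain amino acids into fusel alcohols, had 2 of 12 genes higher and none lower, where the array as a whole had 14.5% and 17.1%. Both are enzymes of ethanol metabolism too, PDC1, the main pyruvate decarboxylase, with a difference of 0.45 (adjusted p = 0.00843 from limma), and ADH3, the mitochondrial alcohol dehydrogenase, with 0.49 (adjusted p = 0.00877). Of 18 genes of iron-sulfur cluster assembly in the mitochondrion and the cytosol, 3 rose and 5 fell, against 14.5% and 17.1% of all probesets. ISU1, the mitochondrial scaffold, rose by 0.58 (adjusted p = 0.00403) and ERV1, a mitochondrial sulfhydryl oxidase, by 0.41 (adjusted p = 0.0158). CIA1 and TAH18, of the cytosolic assembly machinery, fell by 0.55 and 0.83 (adjusted p = 0.00799 and 0.0241). The TAH18 probeset was dim, at 3.90 ± 0.48 (SD, n = 4) against 4.73 ± 0.22 (SD, n = 3), and with the 3' to 5' covariate its difference was -0.41 (adjusted p = 0.289 from limma). The TAH18 call was also lost without mine drainage replicate 3 or 4 or control replicate 2 or 3. That of ERV1 was lost without control replicate 3 and with the covariate (adjusted p = 0.0989 from limma). That of ADH3 was lost without control replicate 2 and with the covariate (adjusted p = 0.0691 from limma). With the replicate numbers as a block, PDC1 missed the threshold (adjusted p = 0.056 from limma). ISU1 and CIA1 were called under all 15 alternatives. The cluster enzymes LEU1 and ILV3 themselves were not called. Over all 69 genes of these lists, 11 were called higher and 11 lower, beside 14.5% and 17.1% over the array, with a median difference of 0.06.

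**Figure D5:**
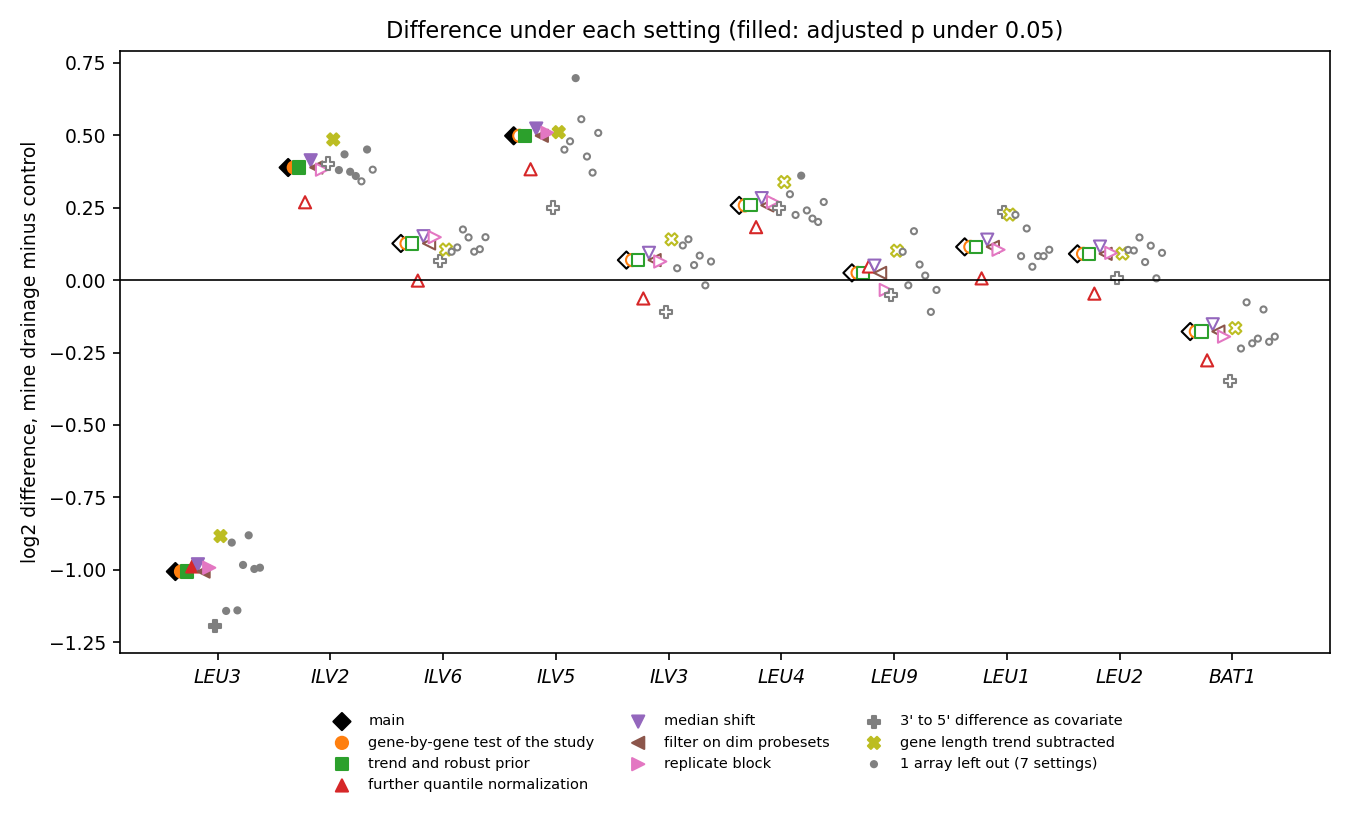
Log2 difference, mine drainage minus control, of each of the 10 genes (groups along the axis) under the reported setting (diamonds) and 15 alternatives (other symbols, with the fits that leave out 1 array as small circles); filled symbols have an adjusted p under 0.05 from limma or, for the gene-by-gene test, from that test. LEU3 is filled and between -1.19 and -0.88 throughout, while ILV2 (0.27 to 0.49) and ILV5 (0.25 to 0.70) are filled in some settings.

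Of the 10 genes, LEU3 was thus the only one to be called under each of the 15 alternatives tried. ILV2 was called under 10 and ILV5 under 6, and both stayed positive in all. The cells were measured in bulk, and the probe intensities of all arrays were brought to the same distribution. A lower signal therefore means a lower share of the RNA measured, and less RNA per cell cannot be told apart from it. The rRNA probesets had a mean of 11.96 ± 0.10 (SD, n = 4) in mine drainage and 11.54 ± 0.12 (SD, n = 3) in control (p = 0.0286 in a two-sided exact permutation test, which cannot go lower with 35 assignments), and their part in the differences above was not tested.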

How the data were processed

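The authors scanned 7 arrays and made the deposited values in Partek with RMA, as the labels and the methods name them. The steps were background correction, quantile normalization, log2 transformation and summarization of probes. The deposited log2 signals ran from 0.163 to 12.8 and were not normalized again. Replicates were separate cultures. Of 10928 probesets, 7244 had a single gene symbol in the platform's annotation, 1 had several and 3683 had none. The 5498 that matched the R64 gene table were tested. Mine drainage minus control was fitted with limma 3.58.1 in R 4.3.3, two-sided, with Benjamini-Hochberg adjustment over the 5498 probesets and no filter on dim probesets. The function was tested on simulated data with known differences. The members and lists were chosen with earlier results of these data known. All 10 members are named, as are ILV1, BAT2, GDH1, OAC1, BAP2 and GCN4 and, from each of 9 other lists, the genes past the threshold, at most 4 with the smallest p. Precision is limited by the number of arrays. The genome build behind the values is not given in the sources used here, so positions are left out, and sequences were not used here. Gene lengths come from the R64 table. Alternatives were the study's gene-by-gene test, a trended robust prior, further quantile normalization, a median shift, a filter on dim probesets, the replicate block, the 3' to 5' covariate, a length trend and leaving out each array.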

Additional observations from a re-analysis of the deposited data

Results flagged for a closer look

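Among the 4 mine drainage arrays, the highest or lowest value stood apart from the others for 2 of the 32 genes examined (the 10 genes of the pathway and 22 around it), where chance flags about 1 in 20 groups. For BAT2, mine drainage replicate 2 was the highest at 8.98, and its gap to the next array was 0.909 of the range of the 4. For CIA1, mine drainage replicate 1 was the highest at 8.48, with a gap of 0.85 of the range. None of the 10 genes themselves had such a value.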

How the results depend on the processing

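With 15 alternatives for each of the 10 genes, 125 of 150 values kept their direction and their side of the threshold, and LEU1, LEU3 and BAT1 did so under all of them. Called higher were 2 genes, beside 795 probesets higher and 942 lower over the array. The 2 became 1 in the study's gene-by-gene test (362 higher and 368 lower over all probesets). After a further quantile normalization 0 genes were called higher (831 and 840). With the covariate for 3' over 5' signal it was 0 (228 and 283), and with the replicate block 1 (432 and 497). The study's definition called 1 of the 3. Leaving out 1 array gave 0 to 3 genes higher, 1 lower, and 324 to 832 probesets higher and 364 to 980 lower, the lowest counts without control replicate 2. Without control replicate 2 or mine drainage replicate 4 there were 0 genes higher. ILV2 lost its call with the block (0.38, adjusted p = 0.0727 from limma) and ILV5 kept it (0.51, adjusted p = 0.0456). Signs turned for LEU2, LEU9, ILV3, ILV6 and OAC1, none of them called. LEU2, ILV3 and ILV6 were at -0.047, -0.063 and -0.0016 after quantile normalization. ILV3 was at -0.11 with the covariate and -0.018 to 0.14 when 1 array was left out, the lowest without control replicate 3. LEU9 was at -0.034 with the block, -0.051 with the covariate and -0.11 to 0.17 when 1 array was left out. OAC1 was at -0.076 to 0.18 when 1 array was left out.

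Arrays that share a replicate number did not deviate together across probesets (correlations -0.07, -0.18 and 0.08), so the block, in which mine drainage replicate 4 adds nothing, pairs numbers only. No gene of the list had another probeset to compare. Motifs and protein identities were not run. The number of arrays limits the precision, as the confidence intervals give it.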
